A study of Mus musculus with 30 samples.

Results

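Haemoglobin-rich erythroid barcodes are the barcodes in which the adult globin genes Hba-a1, Hba-a2, Hbb-bs and Hbb-bt together made up at least 30% of the barcode total, and 671 of 8282 barcodes met this rule. The members were thus chosen by their measured globin share, which is given as a description and not tested. They came from 10 of 30 Seq-Well libraries, a single-cell RNA method in which cells and barcoded beads share microwells. All libraries were from male DBA1/J mice aged 8 to 12 weeks. The mice with collagen-induced arthritis (CIA) had been given 100 µg of bovine collagen II in complete adjuvant, with a booster in incomplete adjuvant on day 20. By the study's methods the healthy controls received phosphate-buffered saline. Arthritis scores were 0 in all healthy animals (named H3, H4, H6 and H7), S1 and S2 scored 8, S6 scored 3 to 4 and S7 scored 3. Blood and lymph node came from 4 healthy and 3 CIA mice each, and spleen, joint, muscle, lung, skin and thymus from 1 mouse per state. The deposited values are smoothed sums over a barcode and its nearest neighbours within a library, here called units, so that the 671 barcodes carried only 291 distinct profiles.

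Red blood cells arise from progenitors that divide several times while they switch on globin, haem and membrane skeleton genes. Erythroblasts then leave the cell cycle, condense and expel the nucleus. The reticulocyte that results still holds RNA for globin and a few late genes, and it loses its mitochondria and ribosomes before it becomes an erythrocyte. In adult mice the bone marrow is the main site, and the spleen can also make red cells, in particular under anaemia or inflammation. By the study's methods, blood was a density-gradient fraction, and red cells were lysed in blood, spleen, lymph node and thymus, and in the muscle of H6 but not in that of S1. Joint, lung and skin were not lysed. In the lysed organs and in blood the barcodes described here are what lysis and the gradient left, not the red cells of the organ.

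The 2 alpha-globin genes lie on chromosome 11 of GRCm38, Hba-a1 at 32283672 to 32284486 and Hba-a2 at 32296492 to 32297310. The beta-globin genes lie on chromosome 7, Hbb-bs at 103826523 to 103827928 and Hbb-bt at 103812524 to 103813923. Alas2, on chromosome X, makes the first enzyme of haem synthesis in red cell precursors, and Klf1, on chromosome 8, encodes the erythroid transcription factor that activates beta-globin. The 100 bases before the start of each of these genes are shown because the globins define the barcodes, Alas2 was found in members of every organ and Klf1 in those of the spleen alone. Sequences are from RefSeq (GRCm38.p6), 5′ to 3′ on the gene's strand. Capitals mark the CCAAT box, the CACCC motif bound by Klf1, the GATAA motif bound by Gata1 and the letters ATATAA of a TATA box, on either strand, and in Hbb-bt and Alas2 some matches touch or overlap.
Hba-a1 (chr11:32283572-32283671, plus strand): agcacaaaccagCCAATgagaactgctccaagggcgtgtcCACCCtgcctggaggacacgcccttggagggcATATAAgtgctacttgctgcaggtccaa
Hba-a2 (chr11:32296392-32296491, plus strand): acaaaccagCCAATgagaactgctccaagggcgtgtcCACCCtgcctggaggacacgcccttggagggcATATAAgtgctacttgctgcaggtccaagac
Hbb-bs (chr7:103827929-103828028, minus strand): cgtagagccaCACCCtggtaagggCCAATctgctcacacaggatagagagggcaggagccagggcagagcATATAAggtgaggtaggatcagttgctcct
Hbb-bt (chr7:103813924-103814023, minus strand): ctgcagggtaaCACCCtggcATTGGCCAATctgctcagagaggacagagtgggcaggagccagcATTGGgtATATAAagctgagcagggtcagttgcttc
Alas2 (chrX:150547317-150547416, plus strand): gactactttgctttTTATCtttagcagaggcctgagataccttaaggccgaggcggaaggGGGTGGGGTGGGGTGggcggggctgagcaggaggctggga
Klf1 (chr8:84901882-84901981, plus strand): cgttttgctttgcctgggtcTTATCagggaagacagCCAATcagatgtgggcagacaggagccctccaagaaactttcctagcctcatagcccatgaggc

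All 4 globin windows held the CCAAT box, the CACCC motif and the ATATAA letters, and none held GATAA. Of all 32851 windows of this length, 18.9% held the CCAAT box, 27.2% the CACCC motif, 3.74% the ATATAA letters and 8.55% the GATAA motif. Among the gene lists described below, CACCC was in 15 of 23 windows of membrane and cytoskeleton genes and CCAAT in 21 of 25 windows of G2 and M phase genes. These are matches of letters, not sites. The windows of Hba-a1 and Hba-a2 shared an unbroken run of 97 of 100 bases.

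The barcodes that met the rule were unevenly spread. Blood held 537 of them, spleen 65, lymph node 42, joint 17 and muscle 10, while lung, skin and thymus held 0. The highest globin share of any barcode was 0.0186% in lung, 0.0304% in skin and 0.470% in thymus. Members ran from 30.1% to 77.8% globin. Just inside the threshold lay 30.06% in H7 blood and 30.09% in S1 spleen, and just outside 29.998% and 29.995% in H7 blood. Between 28% and 30% there were 87 barcodes and between 30% and 32% there were 48, so the threshold cut through a continuous range in H7 blood. Members held 72.8% of all globin units and 4.99% of all other units of the table. No barcode of a member occurred in another library.

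**Figure D1:**
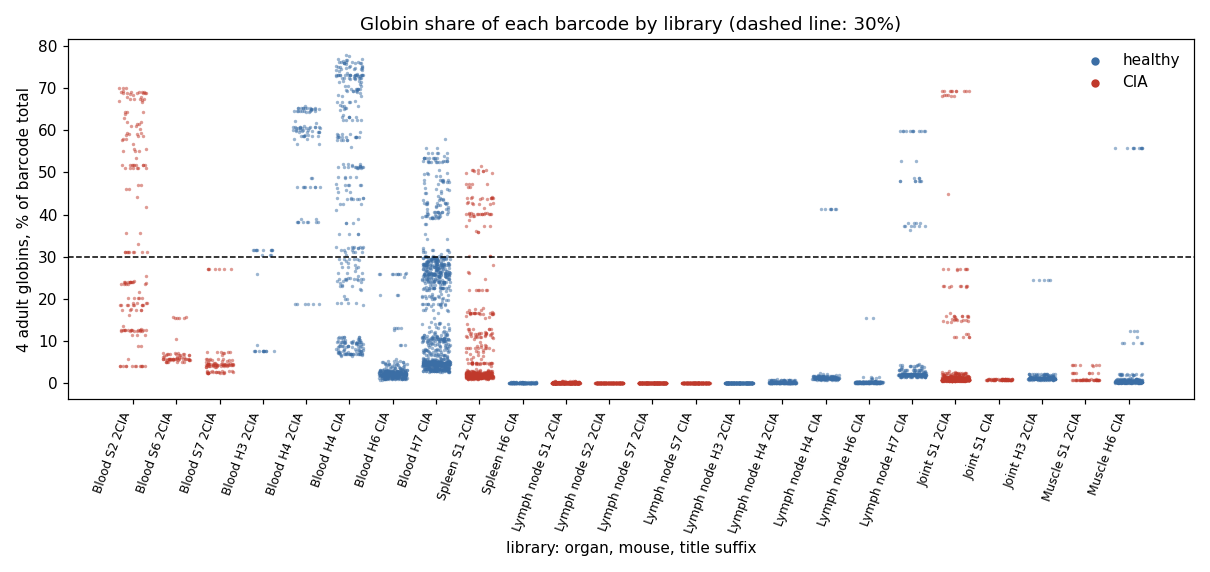
Each point is 1 barcode, placed by library (x axis) and by the share of its total in the 4 adult globin genes (y axis, %), with healthy mice in blue, CIA mice in red and the 30% threshold dashed. Barcodes above the line are in the blood of H3, H4, H7 and S2, the spleen and a joint library of S1, the lymph nodes of H4 and H7 and the muscle of H6, and the spleen of H6 stays below 0.181%.

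Within blood the share of haemoglobin-rich barcodes varied widely among mice of the same state. It was 48.1% of 27 barcodes in H3, 66.6% of 452 in H4, 0 of 306 in H6 and 14.5% of 934 in H7, against 50.9% of 173 in S2, 0 of 62 in S6 and 0 of 97 in S7. Both states thus held mice with about 50% and mice with none. The mean was 32.3% ± 30.5 (SD, n = 4) in healthy and 17.0% ± 29.4 (SD, n = 3) in CIA mice, a difference of -15.3 percentage points (two-sided exact permutation test over mice, p = 0.571). The two-sided p is the smaller tail doubled, so with 35 splits of the mice a p under 0.05 was out of reach. The 2 blood libraries of H4, from the same animal, gave 93.7% and 59.4%. At a threshold of 50% in place of 30% the difference turned to 0.0221 points, and with 2CIA libraries only it was -54.0 points (2 healthy and 3 CIA mice, exact permutation p = 0.4).

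The 3 blood libraries without members were not free of globin. Their highest barcodes reached 26.2% in H6, 15.6% in S6 and 27.2% in S7, and barcodes below the threshold carried 3.57% to 18.7% globin over the 8 blood libraries. Globin RNA was thus present in blood barcodes of every mouse.

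In lymph node, 7 of 311 barcodes in H4 (2.25%) and 35 barcodes in H7 (14.1%) met the rule, against 0 in H3, H6, S1, S2 and S7. The means were 4.08% ± 6.74 (SD, n = 4) and 0% (n = 3), a difference of -4.08 points (two-sided exact permutation test over mice, p = 0.571). As in blood, a p under 0.05 was out of reach. The 2 lymph nodes with members came from healthy mice whose blood also held members.

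Spleen, joint and muscle had 1 mouse per state and no test. In the spleen of S1, 65 of 532 barcodes (12.2%, 95% exact binomial interval 9.56 to 15.3%) were haemoglobin-rich, with 22 distinct profiles. The spleen of the healthy mouse H6 had 0 of 167, which allows a share of up to 1.80% by a floor of 3 barcodes and 2.18% by the exact binomial limit, and its highest barcode held 0.181% globin. Joint of S1 had 17 of 606 in its 2CIA library (2.81%, interval 1.64 to 4.45%) and 0 of 70 in the other, against 0 of 193 in the healthy mouse H3, whose highest barcode held 24.4% globin. Muscle of H6 had 10 of 421 (2.38%, interval 1.14 to 4.32%), all 10 with 1 profile, and that of the CIA mouse S1 had 0 of 54. These intervals cover counting error only, and the smoothed barcodes are not independent. Both spleens had been lysed, but their libraries differed in state and title suffix (CIA or 2CIA, not explained by the labels) as well as in mouse, so these cannot be told apart.

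Globin itself was mostly beta. Of the 4 globins' units over all members, Hbb-bs held 72.9%, Hba-a1 18.8%, Hbb-bt 8.27% and Hba-a2 0.0772%. The alpha share was lowest in S2 blood at 14.9% and highest in S1 joint and H6 muscle at 25.3% and 26.3%, with S1 spleen at 17.1%. These shares describe the values that chose the members. The transcripts of Hba-a1 and Hba-a2 were identical at 99.8% of 538 aligned bases, so their split is uncertain, and only their sum can be read. Those of Hbb-bs and Hbb-bt were identical at 93.2% of 621 aligned bases, and whether reads were shared between them was not tested.

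The embryonic beta-like genes Hbb-bh1 and Hbb-y, which are normally silent in adult red cells, were also listed. Per 1000 units of adult globin, Hbb-bh1 had 32.003 units in H3 blood, 11.5 in H4, 7.40 in H7 and 9.60 in S2, and 7.20 in S1 spleen, 74.995 and 33.4 in the lymph nodes of H4 and H7, 7.28 in S1 joint and 3.83 in H6 muscle. The 2 blood libraries of H4 gave 32.1 and 6.65, so that 1 animal covered the range of the blood mice. Hbb-y followed with 14.7 and 2.10 in the same libraries. Hbb-bh1 and Hbb-bs transcripts were identical at 75.0% of aligned bases, and whether reads were shared between copies was not tested.

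For every other gene, units of the members of a mouse and organ were summed and expressed per 1000000 units outside the 4 globins (UPM). In such sums, fewer cells of a type and less RNA per cell cannot be told apart, and a gene at 0 is only listed at 0, since genes with a highest value of 1 made up from 5.25% to 58.1% of the genes above 0 in a library, and whether rare genes had been removed from some was not tested. Alas2 was above 0 in the members of all 9 pairs of organ and mouse. It stood at 606, 1767, 1366 and 1032 UPM in the blood of H3, H4, H7 and S2, at 1317 in S1 spleen, 518 and 1329 in the lymph nodes of H4 and H7, 2350.1 in S1 joint and 1866 in H6 muscle. The spleen lay within the blood range and joint and muscle above it. Alas2 was above 0 in each of the 126, 80, 45 and 22 distinct member profiles of H4, H7 and S2 blood and S1 spleen. It was also above 0 in 43 of 79, 411 of 516, 12 of 26 and 103 of 281 other profiles of these libraries, so its presence alone did not set the members apart. Its median over member profiles was 1675, 1213, 1365 and 1625 UPM, against 122, 273, 0 and 0 over the other profiles. The summed B cell markers exceeded the summed haem synthesis genes in the members of all 4 blood mice (below), in both lymph node samples, in H6 muscle and in the S1 spleen (9691 against 9055 UPM), and only in S1 joint were they lower (126 against 4279). The members were therefore not purely erythroid in their RNA, and they are named here by their globin share.

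Genes of reticulocyte maturation were present in most samples, but Bnip3l, Bpgm and Tent5c were listed at 0 in the single profile of H4 lymph node members. Bnip3l, which marks mitochondria for removal in reticulocytes, ranged from 303 to 737 UPM in blood and was 581 in spleen, 588 in H7 lymph node, 1022 in joint and 746 in muscle. Bpgm, the enzyme that makes 2,3-bisphosphoglycerate, ranged from 302 to 583 in blood and was 455 in spleen. Fech, which inserts iron into haem, was at 0 in H3 and 388 to 550 in the other blood mice, and 1366 in spleen. Tent5c, a poly(A) polymerase, and Mkrn1, an E3 ubiquitin ligase, were at 180 and 704 in spleen, within the blood ranges of 145 to 764 and 0 to 1294. The mitophagy and autophagy list summed to 2004 in spleen, within the blood range of 1321 to 2436.

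Alas2 and Mkrn1 were higher in the bin of most globin than in that of least globin in H4, H7 and S2. From barcodes with under 10% globin to those with 50% or more, Alas2 went from 98.3 to 2189 UPM in H4, from 182 to 1689 in H7 and from 0 to 1142 in S2. Mkrn1 went from 164 to 1598, from 140 to 848 and from 338 to 851 in the same mice. The rise was not at every step for every late gene, and in H7 Bpgm was at 328 in barcodes of 30% to 50% globin and 220.3 in those of 50% or more. Mki67, a protein of dividing cells, stayed at or below 28.9 in the bin of 50% or more in all 3 mice. The rule used the globin share, so this is a description with no test.

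The spleen of S1 stood apart in its erythroblast genes. Car2, the carbonic anhydrase of developing red cells, was at 145, 185, 51.5 and 46.5 UPM in the blood of H3, H4, H7 and S2 and at 5142 in spleen. Slc4a1, the band 3 anion exchanger, was at 0 to 117 in blood and 2834 in spleen. For both genes the spleen lay above all 4 blood mice.

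**Figure D2:**
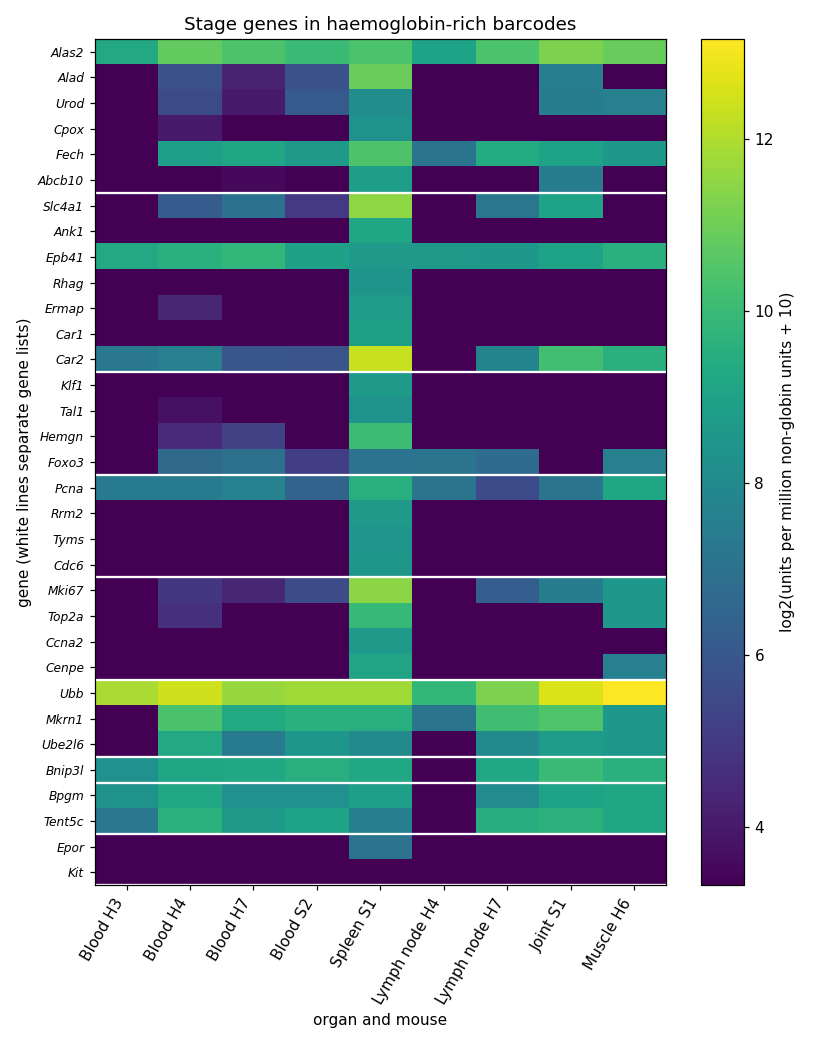
The heatmap gives log2(UPM + 10) of 33 genes (rows, in 9 lists separated by white lines) in the haemoglobin-rich barcodes of 9 pairs of organ and mouse (columns). Klf1, Ank1, Rhag and Car1 are above 0 in the spleen of S1 alone, while Alas2, Ubb and Epb41 are above 0 in all 9.

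Over 5 lists of haem synthesis, membrane, transcription factor, S phase and G2 and M phase genes, 67 of 120 genes in the table were at least 4-fold above the highest blood mouse in spleen, on values with 10 added. Of 20700 genes with any value in the table, 3.77% passed the same rule upwards and 0.986% downwards. The 20700 include genes at or near 0 in the spleen members, which could not pass upwards. The share over all genes is thus not matched in level to the lists. Most of the 120 genes were listed at 0 in a blood mouse and could not pass downwards, so no downward count is read for them. With 1 spleen there is no test, and the fold compares single libraries of different mice. Against only the H4 blood library with more rare genes (49.0% with a highest value of 1, against 15.4% in the other), 77 of 120 passed, beside 7.36% of all genes. With a threshold of 50% globin for spleen and blood alike, which left 8 spleen barcodes and 3 blood mice, the count was 16, beside 2.73% of all genes.

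Haem synthesis genes made up one block, with 9 of 14 passing. Alad, the enzyme after Alas2 in the pathway, was at 1898 UPM in spleen, against at most 44.999 in blood. Cpox and the mitochondrial transporter Abcb10 were at 323 and 441, against at most 6.33 and 1.56. The list summed to 9055 in spleen, 606 to 2550 in blood, 2181 in H7 lymph node, 4279 in joint and 3172 in muscle. Alas2 and Fech, the first and the last enzyme, were among the 5 of 14 that did not pass.

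Of the membrane and cytoskeleton list, 21 of 34 passed. Ank1, which anchors the spectrin skeleton to band 3, was at 544 UPM in spleen, the Rh-associated glycoprotein Rhag at 332, Car1 at 469 and Gypc at 321, and all of them were listed at 0 in the 4 blood mice. Among the 13 that did not pass, Epb41, which joins spectrin to actin, was at 375 in spleen and 479 to 907 in blood, and the spectrin genes Sptb, Sptan1 and Sptbn1 did not exceed the highest blood mouse either. The list summed to 20681 in spleen and to 2060 to 2817 in blood.

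Of the erythroid transcription factors, 7 of 17 passed. Klf1 was at 386 UPM in spleen members and listed at 0 in members of all other organs, and 13 of the 22 spleen profiles carried it. Of 174 units of Klf1 in the whole table, 167 came from the spleen library of S1, 135 of them in its haemoglobin-rich barcodes. Tal1, which specifies the blood lineages, was at 323 against at most 3.52 in blood, and Hemgn at 1074 against at most 28.1. Gata1, the master regulator of the lineage, was low at 11.5 in spleen and 0 in blood. Epor, the erythropoietin receptor, was at 123 in spleen members and 0 in blood, and all its 120 units in the table were in that spleen library. Of the 15 genes of the progenitor list, 7 were above 0 in spleen members and 1, Epor, passed. The list summed to 1062 in spleen and 1407 to 2469 in blood, and Kit, a receptor of earlier progenitors, was listed at 0 in both.

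Cell cycle genes were also high in the spleen. Mki67 was at 0, 20.4, 10.9 and 37.2 UPM in the 4 blood mice and 2803 in spleen, and Top2a, which untangles DNA before division, was at 962 against at most 14.8. Ccna2, Rrm2, Tyms and Cdc6, for cyclin A2, DNA precursor synthesis and replication licensing, were at 392.2, 392.2, 341 and 358 in spleen and listed at 0 in all 4 blood mice. In the lists, 18 of 30 G2 and M phase genes and 12 of 25 S phase genes passed the 4-fold rule. The summed G2 and M phase level was 13438 in spleen members, 5130 in the other barcodes of that spleen, 1931 in the whole spleen of H6 and 727 to 1398 in blood members. It was 6903 in the single member profile of H6 muscle and 2203 in the joint members of S1. The other barcodes of that muscle and joint were at 2713 and 2210. The 16 neutrophil markers summed to 35788 in the same spleen members and 117234 in the other spleen barcodes, and the part of dividing cells of other types was not tested. Cell cycle exit genes were less apart, with 2 of 14 passing and a sum of 3115 within the blood range of 2097 to 3720.

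**Figure D3:**
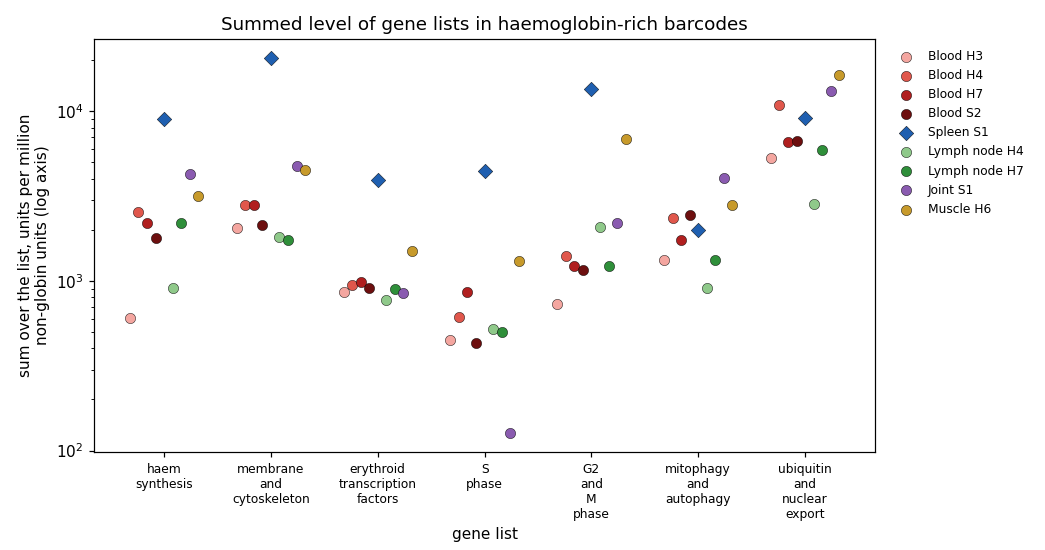
Each symbol is the summed level of a gene list (x axis) in the haemoglobin-rich barcodes of 1 mouse and organ, in UPM on a log axis, with the spleen of S1 as a blue diamond. The spleen has the highest sum in the haem synthesis, membrane, transcription factor, S phase and G2 and M phase lists, and lies inside the range of the other samples for mitophagy and for ubiquitin genes.

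Fewer genes of the other lists passed, among them 5 of 15 proliferation-associated chromatin genes and 3 of 10 haemoglobin chaperone and antioxidant genes. The transferrin receptor Tfrc was at 819 UPM in spleen against 27.9 to 158 in blood, and the mitochondrial iron importer Slc25a37 at 1440.0 against 0 to 493.4, yet only 3 of 16 iron genes passed the rule. Prdx2, an abundant red cell antioxidant, was at 2425 against 189 to 303. The list of ubiquitin and nuclear export genes had 5 of 20 passing and 1 at least 4-fold below, and Ubb, a ubiquitin precursor, was at 3407 in spleen and 3174 to 5564 in blood. Of the 15 erythropoietin and stress erythropoiesis genes 0 passed, which is near the 3.77% of all genes, and Erfe, the erythroblast hormone that lowers hepcidin, was listed at 0 in every member sample.

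Spleen profiles differed among themselves. Across the 22 distinct profiles the G2 and M phase sum ran from 2427 to 26979 UPM with a median of 6532, and Car2 from 849 to 9722. In the 57 barcodes with 30% to 50% globin, Mki67 was at 3055, Car2 at 5565 and Klf1 at 428, and in the 8 with 50% or more they were at 469, 1231 and 0. Alas2 moved the other way, at 1269 and 1759. Spleen barcodes of 10% to 30% globin, below the threshold, already held Car2 at 3134 and Slc4a1 at 1355. The lower levels at the highest globin share rest on 3 profiles.

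**Figure D4:**
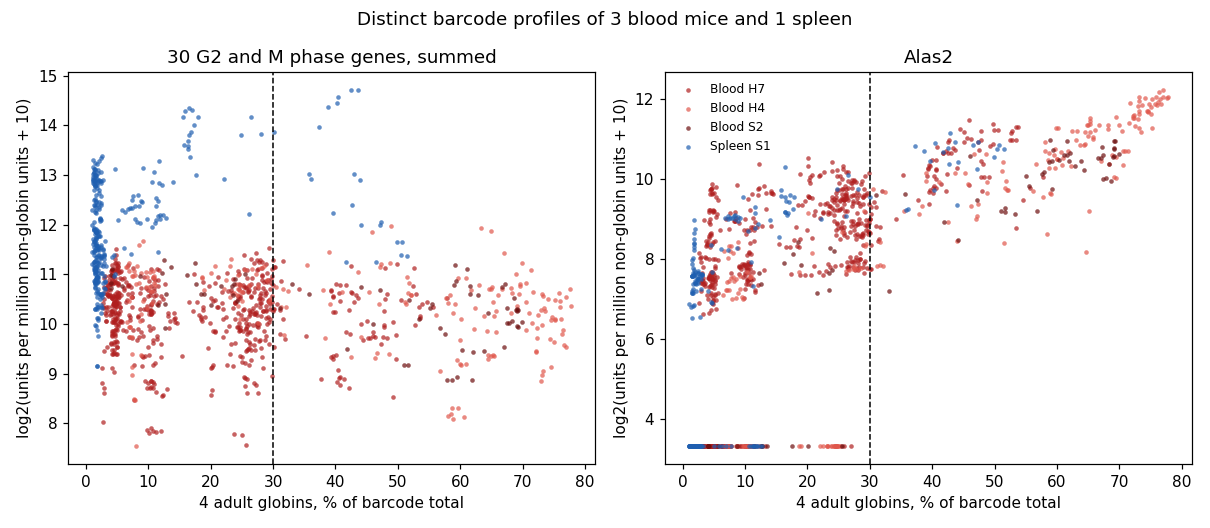
Each point is 1 distinct profile of H4, H7 or S2 blood (reds) or S1 spleen (blue), with its globin share (x axis, %) against log2(UPM + 10) of 30 summed G2 and M phase genes (left) or of Alas2 (right), and the 30% threshold dashed. Spleen members have a median G2 and M phase sum of 6532 UPM, against 1290 in H4, 1206 in H7 and 1225 in S2, while Alas2 overlaps between the organs.

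Joint and muscle members lay between blood and spleen for some of these genes. Car2 was at 1159 UPM in S1 joint and 746 in H6 muscle, above the 4 blood mice. Slc4a1 was at 506 and 0 and Mki67 at 169 and 373. Klf1, Ank1 and Rhag were listed at 0 in both. These rest on 4 profiles in joint and 1 in muscle. In the lymph node members of H7, Car2 was at 208 and Mki67 at 66.3, just above the highest blood values of 185 and 37.2.

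Haemoglobin-rich barcodes also held RNA of other cell types. The 11 B cell markers summed to 13134, 20423, 18114 and 8323 UPM in members from the blood of H3, H4, H7 and S2, against 8920, 25957, 17390 and 3096 in the other barcodes of the same blood. The 16 neutrophil markers summed to 3938, 7870, 11512 and 81898 in the same members, and to 19867 in H7 lymph node, 157101 in S1 joint and 24627 in H6 muscle. S100a8, a neutrophil protein, was at 56455 in S2 blood against 1575 to 7300 in healthy blood. In joint members 5 of 8 fibroblast markers, led by Col3a1 at 1929, and Krt14 of keratinocytes at 717 were found, which were listed at 0 in blood and spleen members. The 14 monocyte and macrophage markers summed to 1157 to 12006 UPM in blood members, 1540 in spleen and 5343 in joint. Of these markers C1qa, C1qb, C1qc and Adgre1 were listed at 0 in members of every organ. The part of these cells in the levels above was not tested.

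**Figure D5:**
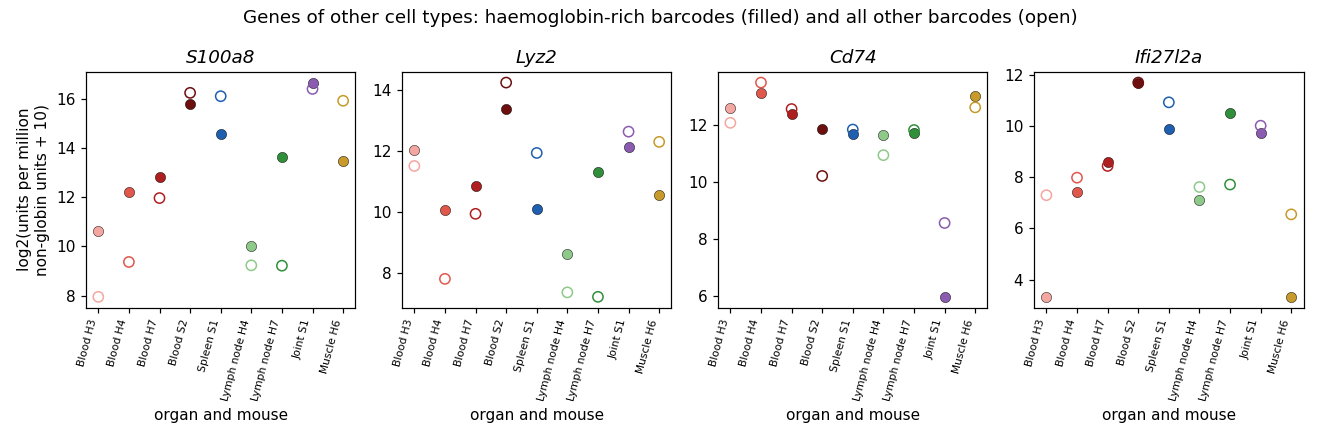
The panels give log2(UPM + 10) of S100a8 (neutrophils), Lyz2 (monocytes and neutrophils), Cd74 (B cells and other antigen-presenting cells) and Ifi27l2a (interferon response) by organ and mouse. Filled points are haemoglobin-rich barcodes and open points all other barcodes of the same organ and mouse, and S2 blood is the highest blood sample for S100a8, Lyz2 and Ifi27l2a in both.

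CIA and healthy blood members could be compared in H3, H4 and H7 against S2 alone, since S6 and S7 had no member. The question was whether the erythroid barcodes differed with arthritis, and with 1 CIA mouse its state and the mouse itself cannot be told apart. limma on log2 values called 0 of 5793 genes (0.0%) at an adjusted p under 0.05 in either direction, and 118 had an unadjusted p under 0.05 (65 higher in S2, 1.12%, and 53 lower, 0.915%). With scaling to the total alone 11 were called, 9 higher and 2 lower. The lone CIA mouse was assumed to vary like the healthy ones, and the absence of calls does not show that the states were alike. S1pr1, a lymphocyte exit receptor, had scaled levels of 154, 277 and 506 UPM in H3, H4 and H7 and was listed at 0 in S2 (adjusted p = 0.997, limma). It entered the test through the healthy mice alone, so its direction was fixed by the filter on low values. Ifitm6, an interferon-induced gene of myeloid cells, had levels of 80.2, 44.4, 35.7 and 1443, a difference of 4.58 ± 1.20 (SE, adjusted p = 0.997). Neither gene passed the test.

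No gene of an erythroid or cell cycle list was called in that comparison. Haem synthesis had a median log2 difference of 1.48 over 7 tested genes, and the progenitor list 0.81 over 6. Of the 14 haem synthesis genes only 1 was above 0 in H3. The summed haem synthesis level in S2, 1779 UPM, lay within the 606 to 2550 of the healthy mice. Membrane genes had 0 of 11 called and a median log2 difference of -0.07, S phase 0 of 9 and 0.19, and G2 and M phase 0 of 7 and 0.34, beside a median of 0.26 over all genes. The interferon list had a median of 2.85 over 13 tested genes. Medians were 3.37 for neutrophil and 2.66 for monocyte and macrophage markers, and their part in the interferon list was not tested. Of the 11 platelet markers 2 were tested, and the list summed to 0, 39.4 and 0 UPM in H3, H4 and H7 and 584 in S2. The 2 entered the test through S2 alone, so their direction was fixed by the filter on low values. Ifi27l2a was at 0, 163 and 375 UPM in healthy members and 3259 in S2 members, and it was at 3313 in the other barcodes of S2, so the level was not particular to haemoglobin-rich barcodes of that mouse. All 3 CIA blood libraries had the title suffix 2CIA, and the healthy ones had both, so suffix and state overlap in part. With 2CIA libraries only, 1480 genes were called, 1479 of them higher in S2, from 2 healthy mice against 1. The test was not made in lymph node, where no CIA mouse had members.

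The organs were compared with blood over 4 organ samples (S1 spleen, H7 lymph node, S1 joint, H6 muscle) and 4 blood mice. At an adjusted p under 0.05, limma called 4 of 6141 genes, all lower outside blood (0.0651%), and 448 genes had an unadjusted p under 0.05 (27 higher, 0.44%, and 421 lower, 6.86%). With scaling to the total alone 9 were called, 4 higher and 5 lower, and so with median-of-ratios scaling. Without the lymph node of H7 the count was 13, and without the joint of S1 or the blood of H4 it was 0. The median log2 difference over all genes was -0.71. With the mouse as a replicate block, since S1 gave spleen and joint and H7 gave blood and lymph node, 0 genes were called and the smallest adjusted p was 0.0538. Of the 4 genes, Cd74 and H2-Aa present antigen in B cells and myeloid cells, Ccl5 is a T and NK cell chemokine, and Hbb-bh3 is a beta-globin pseudogene.

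Cd74 had scaled levels of 4006, 13966, 7940 and 5133 UPM in the 4 blood mice, and 3905, 3515, 42.7 and 4256 in spleen, lymph node, joint and muscle. The lowest blood mouse lay within the range of the organs. Its log2 difference was -2.38 ± 0.54 (SE, adjusted p = 0.0345, limma), and all 11 B cell markers had a negative difference with 2 called, beside 4405 of 6141 genes with a negative difference. Both calls were lost with the replicate block (adjusted p = 0.0538, limma). Without the joint of S1 the difference of Cd74 was -0.83 and that of H2-Aa -1.07 (adjusted p = 0.908 for both, limma), so that library carried much of both values. H2-Aa differed by -2.96 ± 0.69, Ccl5 by -4.98 ± 1.18 and Hbb-bh3 by -2.28 ± 0.54 (SE), with the same adjusted p. Each SE, that of Cd74 included, came from limma's trend over genes of like level. It does not measure the gene's own spread between samples. Without the trend none of the 4 genes passed, with adjusted p from 0.187 for Ccl5 to 0.604 for Cd74 and Hbb-bh3 (limma). Hbb-bh3 sat at 5108, 15485, 3243 and 9285 in blood and 1284, 13852, 1196 and 189 in spleen, lymph node, joint and muscle, so the groups overlapped.

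No gene of the erythroid or cell cycle lists passed in that test, in which the spleen was 1 of 4 organ samples. Genes such as Ank1, Rhag and Car1 were listed at 0 in all blood mice and could enter it only through an organ sample, so no count of their directions is given. The erythroblast and cell cycle genes described above came from 1 spleen library of 1 CIA mouse, and the other spleen of the 8-organ table held no such barcodes.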

How the data were processed

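The authors aligned Seq-Well reads to GRCm38 with STAR, counted molecular identifiers with Drop-seq tools, removed poor-quality cells and knn-smoothed the pilot libraries. The submitters' processing notes also name mm9 and GRCh38. The deposited values are therefore a smoothed signal in whole numbers, not counts, and no count model or doublet caller was used. Column totals ran from 4373 to 36435 and library totals from 217494 to 7886790 units, and read depth is unknown. The share of rare genes differed between libraries, so a gene is only listed at 0.

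Members were barcodes with at least 30% of units in 4 globin genes. They and the gene lists were chosen with earlier results of these data known. Per mouse and organ with at least 10 members, units without the 4 globins were summed. Descriptive levels (UPM) are per 1000000 of this sum. For tests it was scaled with a trimmed mean of log ratios (30% and 5% trimmed), genes below a mean of 25 were dropped, and limma 3.58.1 in R 4.3.3 was run on log2(value + 10), with a mean-variance trend and Benjamini-Hochberg adjustment. This scale understates changes of low genes. Tests named up to 8 genes per direction by smallest p, or 2 where none was called, and any gene of the lists could be named. Shares were compared with exact permutation tests over mice (scipy 1.17.1). Fits were tested on simulated data. Labels tie each library to a mouse, and p-values rest on these few animals. Of 23013 gene rows 21404 had a symbol in RefSeq's GRCm38.p6 table. Transcripts were aligned with Biopython 1.88.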

Additional observations from a re-analysis of the deposited data

Results flagged for a closer look

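The haemoglobin-rich share of lymph node barcodes in the healthy mouse H7, 14.1%, lay far from those of the other 3 healthy mice (0, 0 and 2.25%), with a gap to the nearest of 0.840 of the whole range. Chance puts about 1 in 20 groups past the same limit, and the healthy groups of 4 mice in blood and lymph node were examined. The 35 barcodes held 8 distinct profiles, and blood of the same mouse also held such barcodes.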

How the results depend on the processing

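The difference in blood shares kept its sign except at a 50% threshold (0.0221 points). It ran from -32.3 to -3.91 points without single mice and was -54.0 points with 2CIA libraries only. With mouse number as a replicate block it was -7.23 points (2 shared numbers, which name different animals and pair nothing by the labels, no test). In lymph node the difference ran from -5.44 to -0.75 points without single mice and was 0 with 2CIA libraries only, where no library had members. With so few mice no alternative in either organ could reach a p under 0.05 in the exact permutation test. The 67 stage genes of the spleen became 16 at a 50% threshold (8 spleen barcodes, 3 blood mice) and 61 to 77 under the other settings, 68 to 73 of them without single blood mice. These settings, all globin genes left out and at least 5 distinct profiles were chosen after seeing the data. In CIA against healthy blood the 0 calls became 11 with total scaling only and 1480 with 2CIA libraries only, stayed 0 without each healthy mouse, and could not be fitted without S2. With total scaling S1pr1 differed by -4.92 on the log2 scale, and here too its direction was fixed by the filter on low values. No paired analysis was possible there because the numbers name different animals and no healthy mouse with members has that of S2. The 4 calls of organs against blood were 0 with the replicate block, a 50% threshold, no filter, no trend, 2CIA libraries only or at least 5 barcodes, 2 at a 20% threshold and with totals of all genes, 9 with total scaling and with median-of-ratios scaling, 8 with pseudocount 1, 67 with distinct profiles once (1 organ left), 1 with at least 5 distinct profiles, 5 with all globin genes left out, and 0 to 13 without single samples (13 without H7 lymph node, 8 without H3 blood, 0 without H4 blood or S1 joint, 1 without H7 or S2 blood, 2 without H6 muscle, 4 without S1 spleen). Cd74 and H2-Aa were called in 8 of 22 alternatives and negative in all, Hbb-bh3 in 6 of 21 and Ccl5 in 5 of 22. The cause was not tested.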
